A study of Homo sapiens with 8 samples.

Results

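The noncoding RNA genes described here are 10 loci that give rise to long RNAs without a protein product: MALAT1, NEAT1 and MIAT, whose RNAs stay in the nucleus, the snoRNA host genes GAS5, SNHG1 and SNHG5, the microRNA host genes MIR17HG, MIR155HG and DLEU2, and PVT1. They were taken by symbol, and all 10 were found among the 64252 genes of the count tables, of which 13830 are annotated as lncRNA genes. RNA sequencing had been done on 2 human lines derived from T-cell acute lymphoblastic leukemia (T-ALL): 6T-CEM, a derivative of the CCRF-CEM line, and J.gamma1, a derivative of Jurkat. Each line carried either a control short hairpin RNA (sh-NC, shControl in the sample labels) or one against LDB1 (sh-LDB1), delivered by lentivirus and selected with puromycin, with 2 libraries per group and 8 in all. LDB1 is a cofactor without DNA binding of its own that brings enhancers and promoters together. The hairpin used in the sequenced cells was not given in the sources used here, and nothing stated that the libraries of a group came from separate cultures, so the p-values measure only the spread between these libraries.

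Long noncoding RNAs work in several ways. MALAT1 lies in nuclear speckles, NEAT1 is the scaffold of paraspeckles, which are nuclear bodies that hold RNA-binding proteins, and MIAT is another nuclear transcript with a role in splicing. A snoRNA host is transcribed so that its introns can release small nucleolar RNAs, which guide the chemical modification of ribosomal RNA, while the spliced exons of GAS5, SNHG1 and SNHG5 are short-lived because nonsense-mediated decay removes them. A microRNA host is cut by DROSHA and DGCR8 to release hairpins that DICER1 trims to mature microRNAs: MIR17HG gives the miR-17-92 cluster, an oncogenic cluster in lymphoid tumors, MIR155HG gives miR-155, which is induced when lymphocytes are activated, and DLEU2 holds miR-15a and miR-16, a pair lost in many chronic lymphocytic leukemias. PVT1 lies beside MYC and has been linked to its regulation.

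The microRNAs that these hosts carry are shown because they define what a change of the host could concern, although mature microRNAs were not measured in these libraries. Sequences are RefSeq's for GRCh38.p14 (hg38), 5′ to 3′, with the seed, bases 2 to 8, in capitals. The 6 main arms of MIR17HG lie on the plus strand of chromosome 13 within 765 bp and share 4 seeds, that of miR-17 with miR-20a and that of miR-19a with miR-19b. The 2 arms of DLEU2 lie on its minus strand on chromosome 13 and share 1 seed. The last one, of MIR155HG, is on chromosome 21.
miR-17-5p: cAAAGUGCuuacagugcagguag
miR-20a-5p: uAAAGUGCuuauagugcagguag
miR-18a-5p: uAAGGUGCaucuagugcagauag
miR-19a-3p: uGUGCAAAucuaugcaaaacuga
miR-19b-3p: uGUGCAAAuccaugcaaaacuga
miR-92a-3p: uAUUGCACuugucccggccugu
miR-15a-5p: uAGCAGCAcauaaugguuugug
miR-16-5p: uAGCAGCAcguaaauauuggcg
miR-155-5p: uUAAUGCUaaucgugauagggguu
The cluster runs from chr13:91350618-91350640 for miR-17-5p to chr13:91351361-91351382 for miR-92a-3p, inside an exon of some annotated MIR17HG transcripts and inside an intron of the canonical one. In DLEU2, miR-15a-5p at chr13:50049167-50049188 and miR-16-5p at chr13:50049027-50049048 are intronic in every annotated transcript. miR-155-5p at chr21:25573983-25574006 lies in an exon of MIR155HG. Reads over an intron do not enter a count of the spliced transcript, so the DLEU2 count covers its exons and not these mature arms.

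LDB1 itself was checked first. In 6T-CEM the control libraries held 2777 and 2996 LDB1 counts and the knockdown libraries 1078 and 1000, and in J.gamma1 these were 1909 and 1854 against 929 and 906. The groups did not overlap in either line. With edgeR's quasi-likelihood test, the log2 fold change was -1.60 ± 0.071 (SE, n = 2 per group; Benjamini-Hochberg adjusted p = 1.02e-09) in 6T-CEM and -0.89 ± 0.075 (adjusted p = 3.68e-06) in J.gamma1. The knockdown was thus weaker in J.gamma1, by 0.70 ± 0.095 (interaction term in edgeR's fit to all 8 libraries, adjusted p = 0.000237). Its part in differences between the lines was not tested. The libraries held between 26160492 and 30604977 counts, and levels are given as CPM, the usual scaling of counts to a common library total. All 10 T-lineage markers (CD2, CD3D, CD3E, CD3G, CD5, CD7, CD28, LCK, PTPRC and TCF7) were above 0 in every group. Their summed level was between 2354 and 3506 CPM, and the sum was higher with sh-LDB1 in both lines. Single markers went both ways: by their means, CD5 and CD28 were lower with sh-LDB1 in 6T-CEM, and CD2, CD3D, CD5, LCK and TCF7 in J.gamma1, while the others were higher. Myeloid, erythroid and epithelial markers summed to at most 2.85 CPM in any library, B-lineage markers to at most 81.1 CPM, and HBB and ALAS2 were at 0 in all libraries.

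The label of well-expressed genes held for some of the 10 and not for others. Levels were compared between genes per kilobase of the canonical transcript (RPKM, here CPM divided by length). In 6T-CEM sh-NC the snoRNA hosts led, with 170 RPKM for GAS5, 147 for SNHG5 and 130 for SNHG1, followed by DLEU2 with 16.0, MIR17HG with 7.13, MALAT1 with 2.55, MIR155HG with 1.56, NEAT1 with 1.20, PVT1 with 0.655 and MIAT with 0.0846. No neighbors in this order overlapped between their 2 libraries. In J.gamma1 sh-NC the order was GAS5 (149 RPKM), SNHG5 (122), SNHG1 (61.3), DLEU2 (9.32), MALAT1 (2.74), NEAT1 (2.24), MIR17HG (1.78), MIAT (1.28), PVT1 (1.27) and MIR155HG (0), and here MIAT and PVT1 overlapped. Per counts and without length, MIAT stood at the 34.4th percentile of all detected genes in 6T-CEM, PVT1 at 47.7 and MIR155HG at 51.2, whereas SNHG5 stood at 95.6. The order depended on the transcript length chosen: with all annotated exons joined, SNHG1 came first and MIR17HG only 8th in 6T-CEM. MALAT1, one of the most abundant nuclear RNAs of most cells, had a low level here. The labels name an Illumina kit that by its standard protocol captures polyadenylated RNA, and mature MALAT1 and the long NEAT1 isoform end without a poly(A) tail, so their level in such libraries is not their level in the cell. How far this acted here was not tested.

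**Figure D1:**
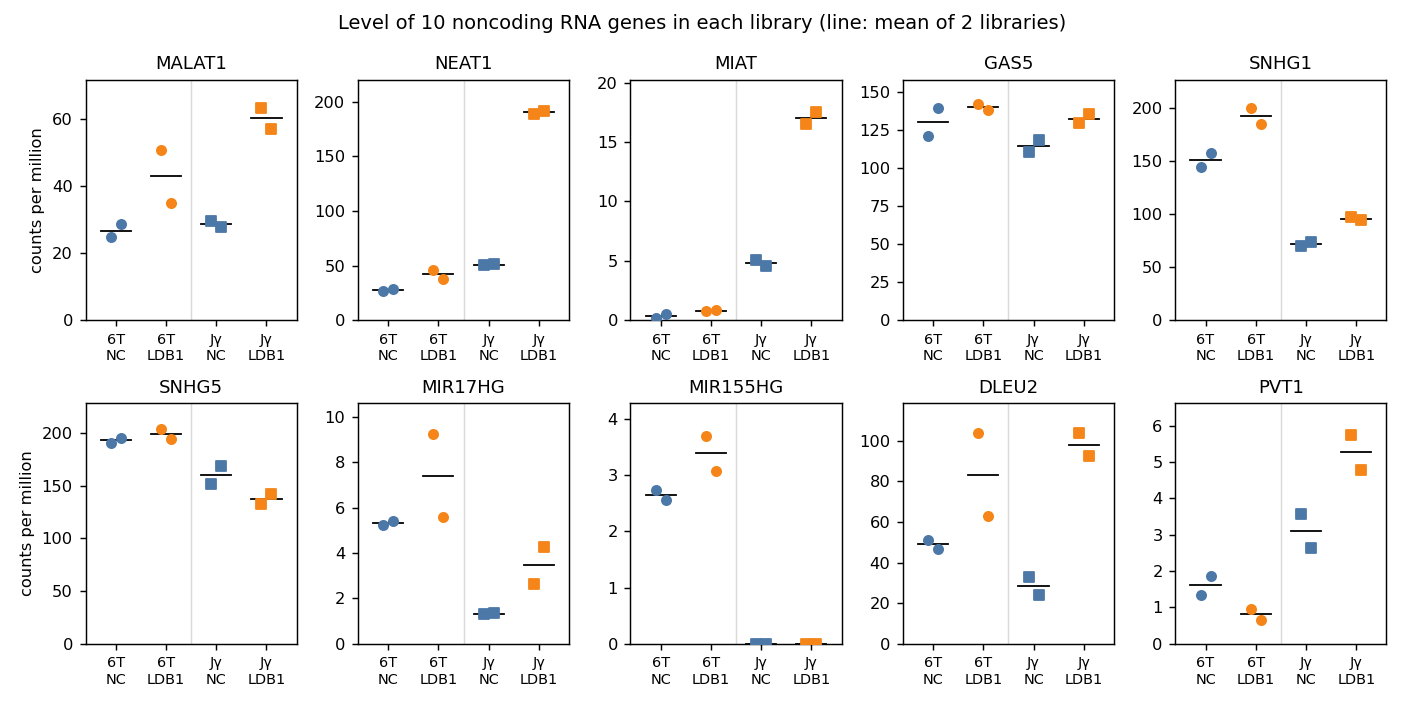
Level of each of the 10 noncoding RNA genes in CPM (vertical axes start at 0), 1 point per library, for 6T-CEM (6T, circles) and J.gamma1 (Jγ, squares) with sh-NC (NC, blue) or sh-LDB1 (LDB1, orange); the line is the mean of 2 libraries. NEAT1, MIAT and DLEU2 stand far higher in both J.gamma1 sh-LDB1 libraries than in the other J.gamma1 libraries, MIR155HG is at 0 in J.gamma1, and the 6T-CEM sh-LDB1 libraries lie apart for MALAT1, MIR17HG and DLEU2.

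The knockdown of LDB1 was followed by higher levels of most of these RNAs in J.gamma1. Of the 9 genes that could be tested there, 9 passed an adjusted p under 0.05, 8 of them higher and only SNHG5 lower, beside 51.5% of all genes tested (25.0% higher and 26.5% lower). Beyond a log2 fold change of 1 there were 5 members, MALAT1, NEAT1, MIAT, MIR17HG and DLEU2, all higher, beside 13.9% of all genes (6.67% higher and 7.19% lower). The groups did not overlap for 8 members that were higher and 1 that was lower, beside 37.3% and 38.6% of all genes. The median log2 fold change of the 9 was 1.08, against 0.00 over all genes. MIR155HG had no count in any J.gamma1 library and was not tested.

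In 6T-CEM the picture was weaker. Of 10 members tested, 2 passed, NEAT1 and SNHG1, both higher, beside 31.3% of all genes (15.1% higher and 16.2% lower). Beyond a log2 fold change of 1, 0 of the 10 passed with edgeR's test, with DESeq2 or at an unadjusted p under 0.05, beside 5.13% of all genes (2.74% higher and 2.39% lower). The share of members called was thus not above the background in this line. The fold change was positive for 9 members and negative for PVT1, with a median of 0.42. For 7 members the sh-LDB1 libraries were both above the sh-NC libraries, and for 1 both were below, beside 32.1% and 33.2% of all genes. Both NEAT1 and SNHG1 rose in both lines, as did 9.11% of the 14902 genes tested in each. DESeq2 called 3 members in 6T-CEM, and a fit to all 8 libraries with a single spread called 5 (MALAT1, NEAT1, MIAT, SNHG1 and PVT1).

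**Figure D2:**
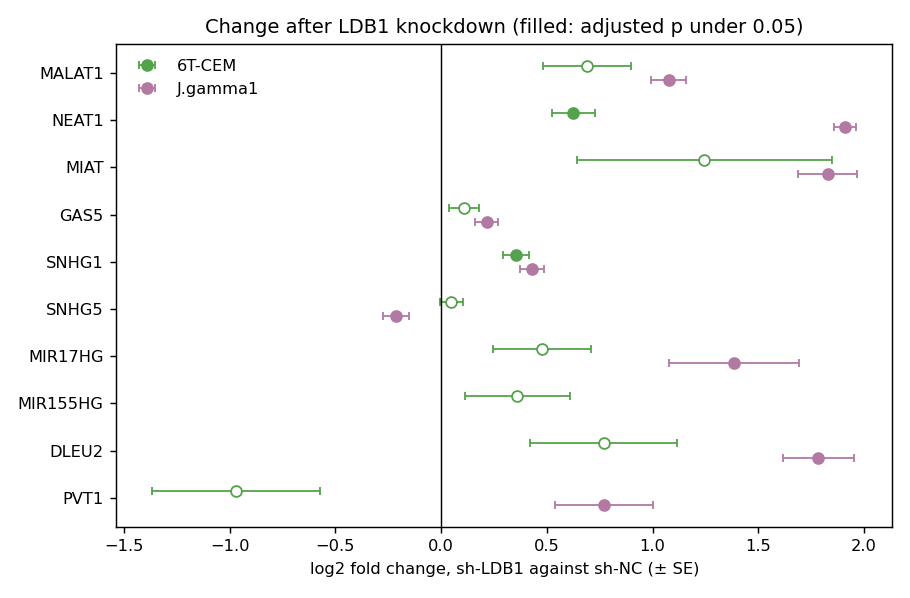
log2 fold change of each gene with sh-LDB1 against sh-NC (horizontal axis) with its standard error, from 2 libraries per group, in 6T-CEM (green) and J.gamma1 (purple); filled points had an adjusted p under 0.05 in edgeR's quasi-likelihood test. All but SNHG5 are positive in J.gamma1, where MIR155HG has no value, and PVT1 points in opposite directions in the 2 lines.

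Among the nuclear RNAs, NEAT1 (ENSG00000245532, hg38 chr11:65422774-65445540, plus strand, a single exon block) was the one called in both lines by edgeR's test. In J.gamma1 it had 50.01 and 51.8 CPM with sh-NC and 189 and 192 CPM with sh-LDB1, and in 6T-CEM 26.5 and 28.0 CPM against 46.1 and 37.8 CPM. The groups stood apart in both lines, and by far more in J.gamma1. The log2 fold change was 1.91 ± 0.052 (SE, adjusted p = 1.46e-09) in J.gamma1, a ratio of 3.75, and 0.62 ± 0.10 (adjusted p = 0.000300) in 6T-CEM, a ratio of 1.54. The difference between these changes was 1.28 ± 0.12 on the log2 scale (interaction term in edgeR's fit to all 8 libraries, adjusted p = 1.57e-05). It was one of 3 members whose change differed between the lines, out of 9 tested and beside 24.4% of all genes (12.0% higher and 12.4% lower in J.gamma1). Both sh-NC libraries of J.gamma1 were also higher than those of 6T-CEM, by 0.90 ± 0.085 (adjusted p = 1.49e-06). NEAT1 was called in each of these comparisons when any 1 library was left out.

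MALAT1 (ENSG00000251562, chr11:65497640-65508073, plus strand) begins 52.1 kb after the end of NEAT1. Its level in J.gamma1 was 29.7 and 27.6 CPM with sh-NC and 63.2 and 57.0 CPM with sh-LDB1. In 6T-CEM it was 24.7 and 28.6 CPM against 50.6 and 35.0 CPM. Neither line showed overlap, but the 2 sh-LDB1 libraries of 6T-CEM lay far apart. The log2 fold change was 1.08 ± 0.083 (adjusted p = 1.80e-06) in J.gamma1 and 0.69 ± 0.21 (adjusted p = 0.0781) in 6T-CEM. Without sh-LDB1 replicate 1 the latter was 0.40, and without replicate 2 it was 0.93, in fits that drop the spread within that group. With all libraries of the line, DESeq2 gave an adjusted p of 0.000202. The difference between the lines, 0.38 ± 0.23 (adjusted p = 0.279), did not pass. It moved with the 6T-CEM sh-LDB1 libraries, to 0.68 without replicate 1 and to 0.15 without replicate 2. The annotated antisense RNA TALAM1 covers 77.8% of the exon bases of MALAT1, and since the kit named in the labels does not mark strand, reads from the pair cannot be told apart.

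MIAT (ENSG00000225783, chr22:26646411-26676475, plus strand) was close to the limit of detection in 6T-CEM, with 4 and 13 counts in the controls and 21 and 23 after knockdown. J.gamma1 controls had 160 and 145 counts, and the knockdown libraries 463 and 517. The log2 fold change of 1.83 ± 0.14 (adjusted p = 1.79e-06) in J.gamma1 was near that of NEAT1 in size. In 6T-CEM it was 1.24 ± 0.60 (adjusted p = 0.137), and at these counts it moved between 0.66 and 2.28 when 1 library was left out. The sh-NC level was higher in J.gamma1 by 3.89 ± 0.33 on the log2 scale (adjusted p = 5.66e-07). An antisense lncRNA gene shares 2148 exon bases with MIAT. It held 10 counts on average in 6T-CEM sh-NC and 7 with sh-LDB1, close to the counts of MIAT there, so the 6T-CEM values of MIAT are uncertain. In J.gamma1 this antisense gene averaged 0.5 counts with sh-NC and 3 with sh-LDB1. MIATNB, a lncRNA gene on the same strand, shares 241 exon bases with MIAT. It averaged 47.5 counts with sh-NC and 85.5 with sh-LDB1 in 6T-CEM, more than MIAT, and 129.5 and 107.5 in J.gamma1. This overlap adds to the uncertainty of MIAT in 6T-CEM.

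The snoRNA hosts changed little in size although they were well measured. SNHG1 (ENSG00000255717, chr11:62851978-62855953, minus strand) rose in both lines. It had 144 and 157 CPM with sh-NC and 199 and 185 CPM with sh-LDB1 in 6T-CEM, and 69.3 and 73.1 CPM against 97.0 and 94.2 CPM in J.gamma1. The groups did not overlap. The log2 fold changes of 0.35 ± 0.063 (adjusted p = 0.000558) in 6T-CEM and 0.43 ± 0.057 (adjusted p = 9.88e-05) in J.gamma1 differed by 0.07 ± 0.086 (adjusted p = 0.605). Its sh-NC level was lower in J.gamma1 by 1.08 ± 0.061 (log2, adjusted p = 1.36e-08), the clearest difference in level among the 3 hosts.

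GAS5 (ENSG00000234741, chr1:173858559-173868882, minus strand) is a growth arrest gene whose host transcript accumulates when translation slows. In J.gamma1 it had 111 and 119 CPM with sh-NC and 130 and 136 CPM with sh-LDB1, which did not overlap, and the log2 fold change was 0.22 ± 0.055 (adjusted p = 0.00663), a ratio of 1.16. This call was lost without sh-NC replicate 1 (adjusted p = 0.0605) or sh-LDB1 replicate 2 (adjusted p = 0.0521). The 6T-CEM libraries overlapped, with 121 and 140 CPM against 142 and 138 CPM, and the log2 fold change was 0.11 ± 0.070 (adjusted p = 0.274). Its exons share 132 bases with GAS5-AS1, on the other strand.

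SNHG5 (ENSG00000203875, chr6:85650491-85678932, minus strand) was the only member lower in J.gamma1. The sh-NC libraries there had 151 and 169 CPM and the sh-LDB1 libraries 133 and 142 CPM, while 6T-CEM had 191 and 196 CPM against 204 and 195 CPM. In J.gamma1 the groups were apart by a small gap, and in 6T-CEM they overlapped. The log2 fold change was -0.21 ± 0.061 (adjusted p = 0.0135) in J.gamma1 and 0.05 ± 0.055 (adjusted p = 0.556) in 6T-CEM, and the difference between them was -0.26 ± 0.085 (adjusted p = 0.0410). Upper-quartile scaling (adjusted p = 0.0517), no filter on low counts (adjusted p = 0.0534) and leaving out sh-NC replicate 2 (adjusted p = 0.119) or sh-LDB1 replicate 1 (adjusted p = 0.119) ended the call in J.gamma1, and the difference between lines was lost in most fits that left out a library.

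Hosts of this kind often begin with a run of pyrimidines, the start typical of genes for ribosomal proteins. The 30 bases around the start of the canonical transcript (10 before and 20 from the start, hg38, in the direction of transcription) are shown for the 3 hosts because they moved differently, with CTTTT in capitals.
GAS5, chr1:173867970-173867999, minus strand: accatactgtCTTTTcgaggtaggagtcga
SNHG1, chr11:62855903-62855932, minus strand: gggcctctgcggcatggtatttaatcgtct
SNHG5, chr6:85678729-85678758, minus strand: ggagctactggctgcgcacttcggtCTTTT
The letters CTTTT were found for GAS5 at the first transcribed base and for SNHG5 further in, and not in the SNHG1 window. On the transcript strand they occurred in 3.01% of such windows of 16959 genes tested, on the other strand in 1.63%, and in 2 of 25 other snoRNA hosts. A match is a description of the letters only, and the canonical start may not be the one used in these cells.

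Of the microRNA hosts, DLEU2 (ENSG00000231607, chr13:49956670-50125720, minus strand) had the largest log2 fold change in each line. J.gamma1 had 33.0 and 24.2 CPM with sh-NC and 104 and 92.4 CPM with sh-LDB1. In 6T-CEM it had 51.3 and 46.7 CPM against 104 and 62.9 CPM, with sh-LDB1 replicate 1 far above replicate 2. The groups did not overlap in either line. In log2 terms the change was 1.78 ± 0.17 (adjusted p = 0.000938) in J.gamma1 and 0.77 ± 0.35 (adjusted p = 0.268) in 6T-CEM. That of 6T-CEM was 0.37 without sh-LDB1 replicate 1 and 1.08 without replicate 2, in fits that drop the spread within that group. The difference between the lines was 1.01 ± 0.41 (adjusted p = 0.165), with 1.42 without 6T-CEM sh-LDB1 replicate 1 and 0.71 without replicate 2.

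MIR17HG (ENSG00000215417, chr13:91347686-91397592, plus strand) had few counts in both lines. The 6T-CEM controls had 136 and 146 counts and the knockdown libraries 269 and 159. Both J.gamma1 controls had 42 counts, against 74 and 126 after knockdown. Both pairs of sh-LDB1 libraries were uneven, but lay above their sh-NC libraries. The log2 fold change was 1.39 ± 0.31 (adjusted p = 0.00307) in J.gamma1 and 0.48 ± 0.23 (adjusted p = 0.143) in 6T-CEM, and these differed by 0.91 ± 0.42 (adjusted p = 0.145). Without 6T-CEM sh-LDB1 replicate 1 the value in 6T-CEM was 0.07, and without replicate 2 it was 0.79. Its sh-NC level was lower in J.gamma1 by 2.00 ± 0.31 (log2, adjusted p = 0.000112), a ratio of 0.250.

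MIR155HG (ENSG00000234883, chr21:25561810-25575168, plus strand) separated the lines rather than the treatments. In 6T-CEM the controls had 71 and 69 counts and the knockdown libraries 108 and 88, against 0 in all 4 J.gamma1 libraries. Against a floor of 3 counts per library, the sh-NC level was at least 27.9-fold higher in 6T-CEM, and the sh-LDB1 level at least 32.4-fold higher. These bounds cover counting error only. The 6T-CEM groups did not overlap, yet the log2 fold change of 0.36 ± 0.25 (adjusted p = 0.305) did not pass.

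PVT1 (ENSG00000249859, chromosome 8, plus strand), a long gene with many annotated exons, was the one member with fold changes of opposite sign beyond 0.5 on the log2 scale. The 6T-CEM controls had 35 and 50 counts against 28 and 19 after knockdown, and those of J.gamma1 113 and 83 against 161 and 141. The groups stood apart in each line, in opposite directions. Its log2 fold change was -0.97 ± 0.40 (adjusted p = 0.0779) in 6T-CEM and 0.77 ± 0.23 (adjusted p = 0.0166) in J.gamma1, and the difference of 1.74 ± 0.43 passed (adjusted p = 0.0117). Without 6T-CEM sh-NC replicate 2 the difference was 1.5 (adjusted p = 0.0518), and without J.gamma1 sh-NC replicate 2 or sh-LDB1 replicate 1 the change in J.gamma1 had an adjusted p of 0.10 and 0.107.

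In the control cells alone, 8 of 10 members differed between the lines, 3 higher and 5 lower in J.gamma1, beside 65.7% of all genes (34.6% higher and 31.1% lower). Higher in J.gamma1 were NEAT1, MIAT and PVT1 (0.95 ± 0.30 on the log2 scale, adjusted p = 0.0143), and lower were GAS5 (-0.19 ± 0.068, adjusted p = 0.0303), SNHG1, SNHG5 (-0.27 ± 0.060, adjusted p = 0.00152), MIR17HG and MIR155HG. MALAT1 (0.10 ± 0.16, adjusted p = 0.606) and DLEU2 (-0.78 ± 0.30, adjusted p = 0.0776) did not pass. The GAS5 call was lost with upper-quartile scaling (adjusted p = 0.0794), with no filter (adjusted p = 0.0577), without 6T-CEM sh-NC replicate 2 (-0.085, adjusted p = 0.306) and without J.gamma1 sh-NC replicate 1 (-0.13, adjusted p = 0.203), and it was -0.30 without 6T-CEM sh-NC replicate 1. The PVT1 call was lost without sh-NC replicate 1 of either line (adjusted p = 0.105 and 0.113). Each line came in its own table, so line and table cannot be told apart.

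The share of all counts that fell on the 10 genes was 0.0535% and 0.0566% in 6T-CEM sh-NC and 0.0740% and 0.0638% with sh-LDB1, and 0.0473% and 0.0487% against 0.0791% and 0.0780% in J.gamma1. All lncRNA genes together rose less, from 0.762% and 0.763% to 0.840% and 0.799% in 6T-CEM and from 0.744% and 0.733% to 0.812% and 0.807% in J.gamma1. Replication-dependent histone genes, whose mRNAs have no poly(A) tail, took 0.00516% and 0.00460% of the counts against 0.00781% and 0.00751% in 6T-CEM, and 0.00375% and 0.00422% against 0.00633% and 0.00701% in J.gamma1, so these shares were higher with sh-LDB1 in both lines as well. The part of RNA capture or quality in the rise of MALAT1 and NEAT1 was not tested. Mitochondrial genes took between 2.98% and 4.59% with overlap between the groups of each line.

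Among the other 1496 lncRNA genes tested in 6T-CEM, 112 (7.49%) rose and 78 (5.21%) fell, with a median log2 fold change of 0.06. In J.gamma1, 292 (16.8%) of 1742 rose and 191 (11.0%) fell, with a median of 0.17. Of the 12030 protein-coding genes tested in 6T-CEM, 2098 (17.4%) rose and 2374 (19.7%) fell, and of 12855 in J.gamma1, 3564 (27.7%) rose and 4054 (31.5%) fell. Rises outnumbered falls among lncRNA genes in both lines under each of 3 scalings. Among coding genes falls were more numerous with TMM and with DESeq2 size factors, but with upper-quartile factors 2387 rose and 2100 fell in 6T-CEM and 4011 rose and 3663 fell in J.gamma1. In bulk samples a change of RNA per cell and a change in the mix of cells cannot be told apart.

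Of the other snoRNA host genes, 3 of 23 rose and 3 fell in 6T-CEM (13.0% each way, median log2 fold change 0.11), near the 15.1% and 16.2% of all genes. In J.gamma1 9 of 23 rose and 3 fell (39.1% and 13.0%, median 0.29), beside 25.0% and 26.5% of all genes. The change differed between the lines for 10 of 23, for 9 of them (39.1%) toward higher in J.gamma1, beside 12.0% of all genes. Without 6T-CEM sh-NC replicate 2, only 3 were called in 6T-CEM. SNHG3 rose in both, by 0.38 ± 0.062 (adjusted p = 0.000281) in 6T-CEM and 1.92 ± 0.077 (adjusted p = 1.65e-08) in J.gamma1, where its level went from 15.2 ± 0.381 to 57.4 ± 0.0409 CPM (mean ± SD, n = 2). SNHG20 rose in J.gamma1 by 1.48 ± 0.20 (adjusted p = 0.000135) and SNHG30 in 6T-CEM by 0.35 ± 0.12 (adjusted p = 0.0356). SNHG11 fell in both lines, by 0.64 on the log2 scale (adjusted p = 0.00130) in 6T-CEM and 0.45 (adjusted p = 0.0220) in J.gamma1. SNHG14 fell by 0.74 (adjusted p = 3.15e-06) in 6T-CEM. SNHG6 rose in 6T-CEM by 0.25 ± 0.065 (adjusted p = 0.00913) and, like SNHG5, fell in J.gamma1, by 0.61 (adjusted p = 6.75e-06), a difference of -0.86 ± 0.088 between the lines (adjusted p = 3.53e-05).

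The mRNAs for proteins that bind snoRNAs or assemble their particles moved apart between the lines. Protein levels were not measured in these libraries. In 6T-CEM, 5 of the 12 core and assembly proteins fell (median -0.15) and 0 rose, by edgeR's test, DESeq2 or an unadjusted p under 0.05, with RUVBL2, a helicase of the assembly machinery, at -0.31 ± 0.055 (adjusted p = 0.000622) and NHP2 at -0.32 ± 0.065 (adjusted p = 0.00154), beside 15.1% of all genes higher and 16.2% lower. In J.gamma1, 10 of 12 rose and 2 fell (median 0.53), beside 25.0% and 26.5% of all genes, and NHP2 rose there by 0.48 ± 0.069 (adjusted p = 0.000182). NOP56, a core protein of box C/D particles, rose by 0.94 ± 0.046 (adjusted p = 5.72e-08) and ZNHIT6, an assembly factor, by 0.88 ± 0.061 (adjusted p = 8.33e-07), while NOP10 fell by 0.20 (adjusted p = 0.0352), as in 6T-CEM (by 0.20, adjusted p = 0.0304), and RUVBL2 by 0.18 (adjusted p = 0.0101), calls that upper-quartile scaling ended. The change differed between the lines for 10 of the 12, each toward higher in J.gamma1, beside 12.0% of all genes. Of 10 nonsense-mediated decay factors, 5 rose and 0 fell in 6T-CEM (0 also with DESeq2 and at an unadjusted p under 0.05), against those same shares of all genes, with UPF1, the central helicase of this decay, at 0.30 ± 0.058 (adjusted p = 0.00128), and 5 rose and 1 fell in J.gamma1, with UPF3A at 0.57 ± 0.075 (adjusted p = 8.74e-05), SMG9 at 0.57 ± 0.084 (adjusted p = 0.000213) and SMG8 at -0.22 ± 0.072 (adjusted p = 0.0255). Without 6T-CEM sh-NC replicate 1 or sh-LDB1 replicate 2 only 2 of these factors were called there, and without sh-NC replicate 1 only 3 of the snoRNA-binding proteins.

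The mRNAs of paraspeckle proteins did not follow NEAT1 as a group. In 6T-CEM 1 of 11 rose and 3 fell (9.09% and 27.3%, median -0.05), beside 15.1% and 16.2% of all genes. In J.gamma1 4 rose and 2 fell (36.4% and 18.2%, median 0.03), beside 25.0% and 26.5%. NONO, one of the core paraspeckle proteins, rose in both lines, by 0.23 ± 0.052 (adjusted p = 0.00322) and 0.37 ± 0.043 (adjusted p = 4.32e-05), and its relative PSPC1 fell in both, by 0.34 (adjusted p = 0.00208) and 0.59 (adjusted p = 3.82e-06). HNRNPH3 fell by 0.34 (adjusted p = 0.000216) in 6T-CEM and by 0.30 (adjusted p = 0.000381) in J.gamma1. These changes of NONO, PSPC1 and HNRNPH3 were smaller than that of NEAT1 in J.gamma1.

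**Figure D3:**
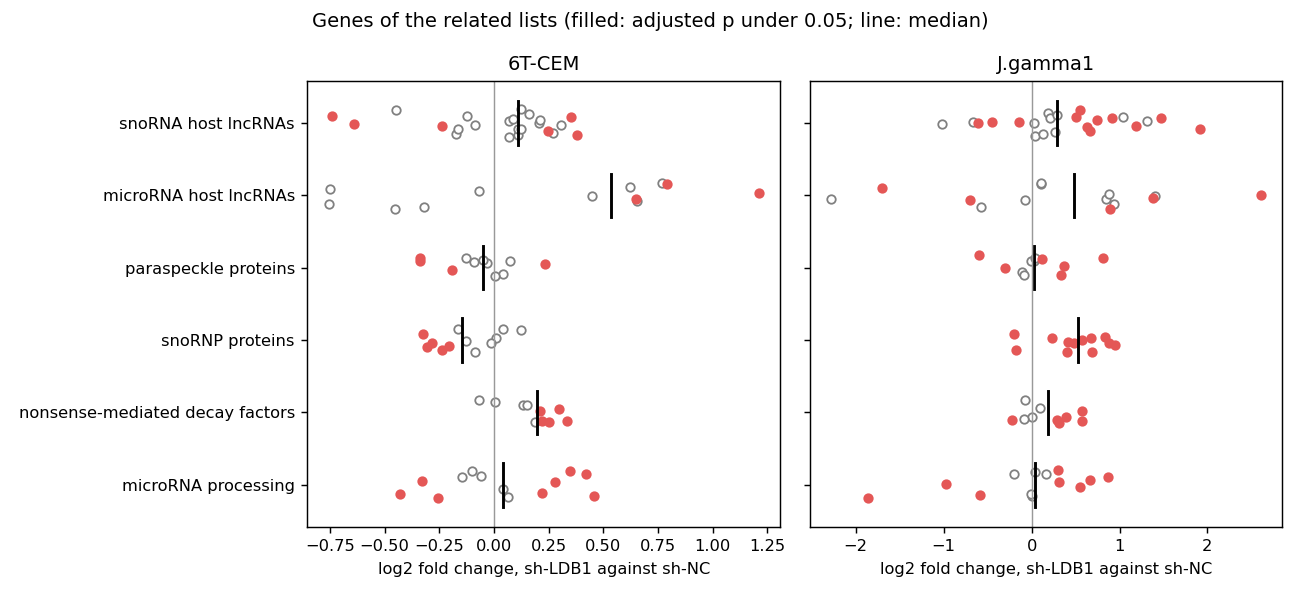
log2 fold change with sh-LDB1 against sh-NC (horizontal axis) of each tested gene in 6 related lists, in 6T-CEM (left) and J.gamma1 (right, with a wider axis); filled points had an adjusted p under 0.05 and the black line is the median. The snoRNP proteins have their median at -0.15 in 6T-CEM and at 0.53 in J.gamma1, whereas paraspeckle proteins scatter around 0 in both.

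Other microRNA host genes were sparse in these cells. Of 21 listed, 12 were tested in 6T-CEM, of which 3 rose (25%) and 0 fell by edgeR's test, beside 15.1% and 16.2% of all genes. With DESeq2 and at an unadjusted p under 0.05, 0 fell as well. In J.gamma1 14 were tested, of which 3 rose and 2 fell (21.4% and 14.3%), below the 25.0% and 26.5% of all genes. With DESeq2, with no filter, with all 8 libraries in the fit, or without 6T-CEM sh-NC replicate 1 or sh-LDB1 replicate 2, only 1 was called in 6T-CEM. MIR4435-2HG rose in both lines, by 0.65 ± 0.13 (adjusted p = 0.00160) and 1.38 ± 0.18 (adjusted p = 8.83e-05), as did CYTOR, by 0.77 ± 0.19 (adjusted p = 0.00717) and 1.30 ± 0.19 (adjusted p = 0.000169). These 2 loci have near-identical copies of part of their sequence, so their values are uncertain. MIR181A1HG rose in both, by 0.79 ± 0.28 (adjusted p = 0.0434) in 6T-CEM and 2.61 ± 0.40 (adjusted p = 0.000282) in J.gamma1, and these differed by 1.81 ± 0.49 (adjusted p = 0.0176). Its mean in J.gamma1 was only 45.75 counts. MIR22HG rose in J.gamma1 by 0.89 ± 0.34 (adjusted p = 0.0483). MIR29B2CHG fell in J.gamma1 by 1.70 (adjusted p = 5.77e-05) and MIR600HG by 0.70 (adjusted p = 0.000364).

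Among other known lncRNAs 2 of 6 rose and 1 fell in 6T-CEM, and 5 of 10 rose and 2 fell in J.gamma1, beside 15.1%, 16.2%, 25.0% and 26.5% of all genes. Without either sh-NC library or sh-LDB1 replicate 2, only 1 was called in 6T-CEM. TUG1 was lower in 6T-CEM by edgeR's test, at -0.22 ± 0.065 (adjusted p = 0.0175), and higher in J.gamma1, at 0.21 ± 0.063 (adjusted p = 0.0168), a difference of 0.43 ± 0.091 (adjusted p = 0.00489). LINC-PINT rose by 0.78 ± 0.30 (adjusted p = 0.0471) in J.gamma1, while HOTAIRM1, a lncRNA of the HOXA locus, fell by 0.90 (adjusted p = 0.00582) and OIP5-AS1 by 0.19 (adjusted p = 0.0200). TALAM1 is part of this list and was not analysed here.

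The genes that process microRNAs moved both ways, 5 of 13 higher (38.5%) and 3 lower (23.1%) in each line, beside 15.1% and 16.2% of all genes in 6T-CEM and 25.0% and 26.5% in J.gamma1. AGO4, which encodes an Argonaute protein, fell in both, by 0.43 (adjusted p = 0.00301) and 1.86 (adjusted p = 1.52e-08). AGO2, the gene of the Argonaute that cuts its targets, fell by 0.97 (adjusted p = 9.93e-06) in J.gamma1. DGCR8, the partner of DROSHA, fell by 0.33 (adjusted p = 0.00352) in 6T-CEM. TNRC6C, a partner of the Argonautes in silencing, rose in both lines, by 0.46 ± 0.066 (adjusted p = 9.79e-05) and 0.87 ± 0.061 (adjusted p = 9.48e-07). TNRC6B rose in 6T-CEM by 0.42 ± 0.069 (adjusted p = 0.000321), and TARBP2, a partner of DICER1, in both lines by 0.35 ± 0.086 (adjusted p = 0.00623) and 0.67 ± 0.079 (adjusted p = 4.27e-05).

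Known mRNA targets of the microRNAs were read as mRNA levels only. Of 6 tested targets of miR-15a and miR-16, whose host is DLEU2, 1 rose and 3 fell in 6T-CEM, beside 15.1% and 16.2% of all genes, and 0 rose and 5 fell in J.gamma1 (median -0.38), beside 25.0% and 26.5%. BCL2, the survival gene that is the textbook target of this pair, fell by 0.83 (adjusted p = 2.34e-05) in 6T-CEM and 1.59 (adjusted p = 6.37e-08) in J.gamma1, and CCNE1, a cyclin of the entry into S phase, by 1.15 (adjusted p = 4.59e-05) and 0.75 (adjusted p = 0.00112). CCND3 rose in 6T-CEM by 0.22 ± 0.053 (adjusted p = 0.00557) and fell in J.gamma1 by 0.50 (adjusted p = 5.34e-06), a difference of -0.72 ± 0.063 (adjusted p = 1.10e-05). Of 7 targets of the miR-17-92 cluster, 2 rose and 1 fell in 6T-CEM (28.6% and 14.3%) and 0 rose and 4 fell in J.gamma1 (57.1% lower), against the same shares of all genes. Without sh-NC replicate 1 only 1 of the latter was called in 6T-CEM. With DESeq2 and at an unadjusted p under 0.05, 0 of both lists rose in J.gamma1. E2F1, a driver of S phase, stood at -0.29 ± 0.065 (adjusted p = 0.00310) and -1.13 ± 0.062 (adjusted p = 1.42e-07). CDKN1A rose in 6T-CEM by 1.43 ± 0.48 (adjusted p = 0.0336), on a mean of only 23.75 counts there, and fell in J.gamma1 by 1.04 (adjusted p = 0.00305). These targets respond to many other inputs, and the part of any microRNA was not tested.

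For miR-155, whose host was at 0 in J.gamma1, 3 of 7 tested targets rose and 3 fell in 6T-CEM, beside 15.1% and 16.2% of all genes, and 4 of 6 rose and 2 fell in J.gamma1, beside 25.0% and 26.5%. SOCS1, a brake on cytokine signaling, rose by 2.75 ± 0.22 (adjusted p = 2.95e-07) in 6T-CEM and 1.21 ± 0.41 (adjusted p = 0.0280) in J.gamma1, the latter on a mean of only 28.75 counts. INPP5D fell by 0.67 (adjusted p = 5.66e-06) in 6T-CEM and rose by 0.38 ± 0.10 (adjusted p = 0.00923) in J.gamma1, a difference of 1.05 ± 0.12 (adjusted p = 9.04e-05). CEBPB rose in both lines, by 0.68 ± 0.091 (adjusted p = 5.23e-05) and 1.00 ± 0.11 (adjusted p = 2.91e-05), and BACH1 fell in both, by 0.26 (adjusted p = 0.0228) and 0.43 (adjusted p = 0.000299). JARID2 rose in both lines, by 0.53 ± 0.061 (adjusted p = 1.19e-05) and 0.52 ± 0.047 (adjusted p = 6.20e-06), and TP53INP1 fell in J.gamma1 by 0.65 (adjusted p = 7.81e-05).

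Genes beside the members were examined because LDB1 acts on the contact between enhancers and promoters. Of those that overlap a member or start within 100 kb of one, 43 were tested in 6T-CEM, of which 8 rose and 5 fell, and 42 in J.gamma1, of which 13 rose and 11 fell. These shares were near those of all genes. LTBP3, downstream of MALAT1 and a binding partner of latent TGF-beta, rose in both lines, by 0.87 ± 0.14 (adjusted p = 0.000229) and 1.56 ± 0.14 (adjusted p = 7.20e-06). FAM89B, in the same stretch, rose in 6T-CEM by 0.59 ± 0.080 (adjusted p = 6.00e-05) and was lower in J.gamma1, at -0.45 ± 0.065 (adjusted p = 0.000186). SLC25A45, upstream of NEAT1, rose in J.gamma1 by 0.79 ± 0.12 (adjusted p = 0.000201), and the pseudogene FAUP4, between NEAT1 and MALAT1, fell there by 1.07 (adjusted p = 0.00205). SNX14, a sorting nexin beside SNHG5, fell in both lines, by 0.96 (adjusted p = 1.13e-06) and 1.11 (adjusted p = 4.79e-07).

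The neighbors named next were chosen after their values were seen. DLEU2 overlaps TRIM13, a ubiquitin ligase gene on the other strand, with which it shares 690 exon bases, or 5.39% of its own. TRIM13 fell where DLEU2 was higher, by 0.67 (adjusted p = 0.000127) in 6T-CEM and 0.69 (adjusted p = 2.68e-05) in J.gamma1. Also lower were SPRYD7, at -0.78 ± 0.19 (adjusted p = 0.00566) and -0.70 ± 0.13 (adjusted p = 0.000855), and KCNRG, inside DLEU2 on the other strand, at -1.41 ± 0.29 (adjusted p = 0.00179) and -0.61 ± 0.28 (adjusted p = 0.0881). DLEU1, a lncRNA that by its annotation starts inside DLEU2 on the other strand and shares 0 exon bases with it, rose by 0.26 ± 0.081 (adjusted p = 0.0251) and 0.39 ± 0.087 (adjusted p = 0.00303). Reads in the exons that DLEU2 and TRIM13 share cannot be assigned to a strand, and the changes of the pair had opposite signs.

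SNHG1 and SLC3A2, which encodes the heavy chain of an amino acid transporter, start 51 bp apart in opposite directions. SLC3A2 rose with SNHG1 in both lines, by 0.27 ± 0.054 (adjusted p = 0.00151) and 0.48 ± 0.054 (adjusted p = 3.06e-05). WDR74, a ribosome assembly gene next in line, rose in J.gamma1 by 0.78 ± 0.079 (adjusted p = 1.39e-05), and STX5 was lower, at -0.66 ± 0.075 (adjusted p = 3.03e-05). SYNCRIP, beside SNHG5, rose in J.gamma1 by 0.60 ± 0.046 (adjusted p = 1.79e-06), where SNHG5 was lower.

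MYC, the nearest tested gene to PVT1, went the same way as PVT1 in each line. It had 430.0 ± 2.89 CPM with sh-NC and 319 ± 12.9 CPM with sh-LDB1 in 6T-CEM, and 152 ± 2.29 against 220.3 ± 2.79 CPM in J.gamma1 (mean ± SD, n = 2). Its log2 fold change was -0.43 ± 0.053 (adjusted p = 2.56e-05) in 6T-CEM and 0.54 ± 0.046 (adjusted p = 3.81e-06) in J.gamma1, and these differed by 0.97 ± 0.063 (adjusted p = 1.49e-06). The sh-NC levels went the other way, with MYC lower and PVT1 higher in J.gamma1 than in 6T-CEM.

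**Figure D4:**
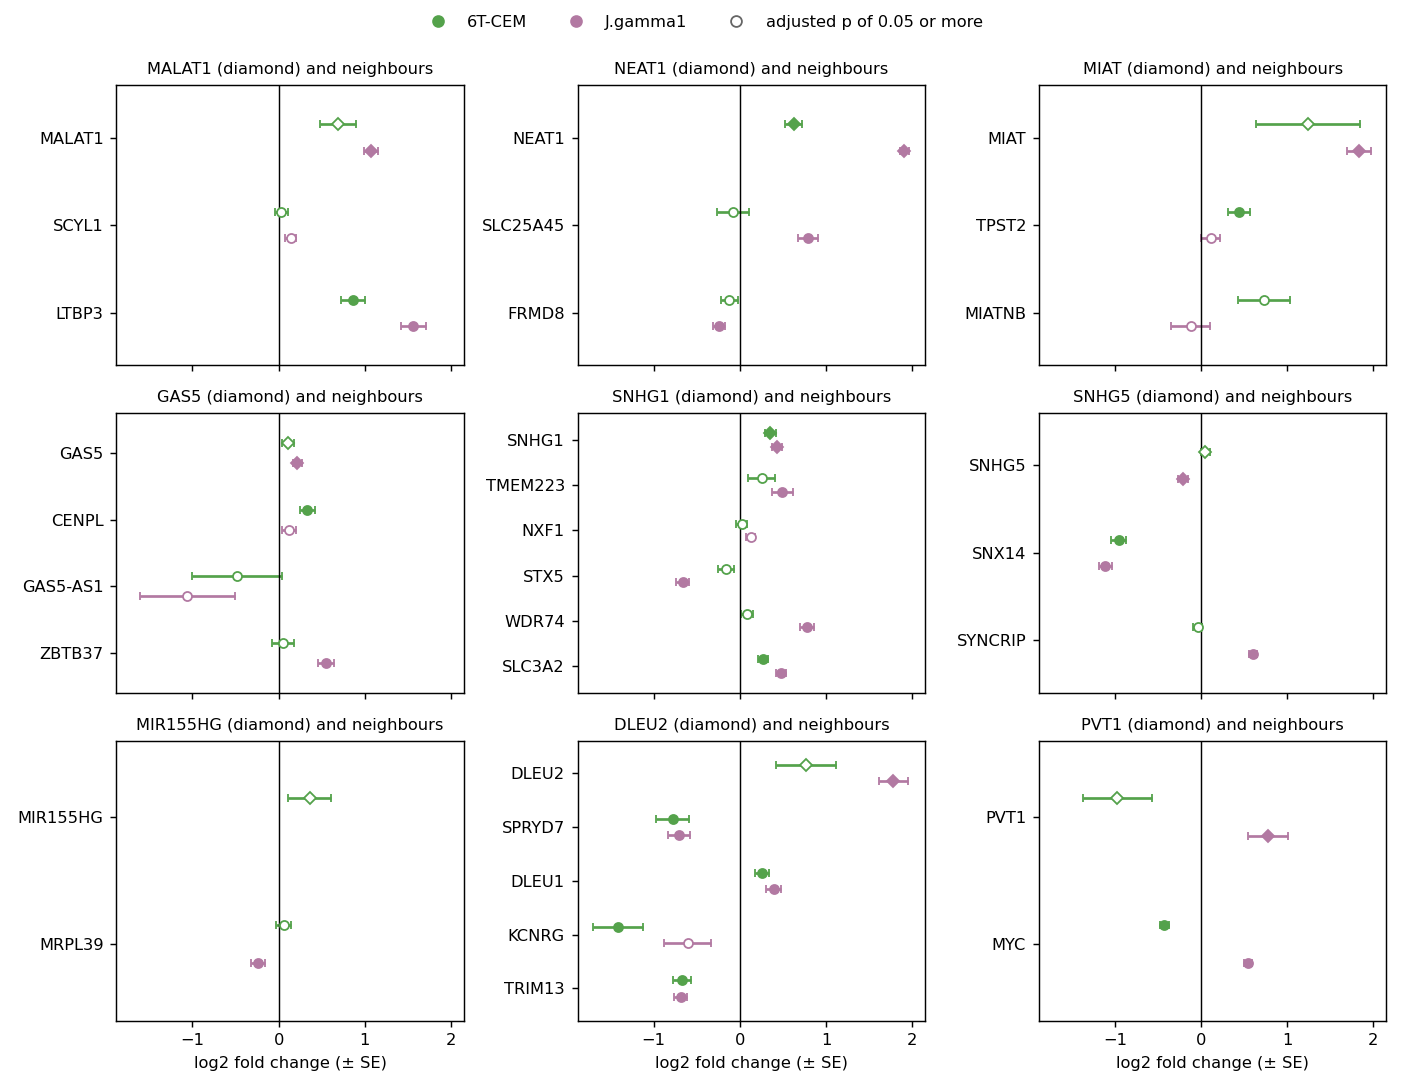
log2 fold change with sh-LDB1 against sh-NC (horizontal axis, ± SE) of 9 of the noncoding genes (diamonds) and of coding and lncRNA genes that overlap them or start within 60 kb (circles), in 6T-CEM (green) and J.gamma1 (purple); open symbols had an adjusted p of 0.05 or more in edgeR's test. TRIM13, KCNRG and SPRYD7 lie left of 0 and DLEU2 right of it, and MYC lies on the same side as PVT1 in each line.

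Each member but MIR155HG, which has no variation in J.gamma1, was also set beside the 2 genes most like it over the 8 libraries, by Pearson's r of log2 CPM after each line was centered on its own mean. These values describe 8 points in 4 groups that share the knockdown. They are the highest 2 among 9575 to 9577 genes compared with a member, and r does not compare the size of a change. CHMP3, for example, changed by 0.10 in 6T-CEM and 0.39 in J.gamma1 on the log2 scale, less than NEAT1. RBAK (r = 0.994) and KLHL42 (0.986) were most like MALAT1, CHMP3 (0.997) and SS18 (0.997) most like NEAT1, CCNK (0.986) and SLC38A7 (0.985) most like MIAT, and RAB12 (0.999) and GGT7 (0.996) most like DLEU2. For the snoRNA hosts they were USP42 (0.984) and CLCN7 (0.976) for GAS5, ODR4 (0.996) and GATD1 (0.996) for SNHG1, and CIB2 (0.971) and GPD1L (0.961) for SNHG5. GPD1L had too few counts to be tested in 6T-CEM and changed by only -0.08 in J.gamma1, so its likeness to SNHG5 is uncertain. MIR17HG was most like DGKQ (0.987) and SPR (0.985) and PVT1 most like DFFA (0.990) and MTMR2 (0.981). Among these members the highest values were those of DLEU2 with MALAT1 (0.968), SNHG1 with MALAT1 (0.968) and DLEU2 with NEAT1 (0.965), and the lowest were those of SNHG5 with DLEU2 (-0.71) and with NEAT1 (-0.70).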

How the data were processed

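Gene counts of 8 libraries were analysed. Per the labels, total RNA was extracted with TRIzol and libraries were made with an Illumina TruSeq RNA kit; the authors aligned paired reads of 150 bp to hg38 with HISAT2 2.2.0, quantified genes with StringTie, and deposited whole-number counts per gene, 1 table per line, without normalization. The annotation release, the use of strand in counting and the conversion of coverage to counts are not given in the sources used here. Of 64252 gene IDs, 56105 were matched to symbols of GENCODE release 44, which also gave coordinates, exons and canonical transcripts.

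Each line was fitted by itself with edgeR 4.0.16 in R 4.3.3 (quasi-likelihood test with robust fitting, TMM factors, filterByExpr, Benjamini-Hochberg adjustment over all genes tested: 16059 for 6T-CEM, 17215 for J.gamma1). Calls required an adjusted p under 0.05, and counts beyond a log2 fold change of 1 are given beside. Differences between lines were contrasts in a fit to all 8 libraries (18552 genes). Biological variation (BCV) came to 9.68% for 6T-CEM, 9.16% for J.gamma1 and 9.58% over all. CPM used TMM-scaled totals over 8 libraries. Steps were tested on simulated data. Standard errors were derived from the fold change and the F statistic. They hold the estimated spread between libraries, and 2 libraries per group limit the precision. The floor of 3 counts covers counting error only.

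The members and lists were chosen with earlier results of these data known. Named were the members, LDB1, and from each list the called genes with the largest rise and fall, up to 2 each way and line, with a mean of at least 50 counts; some genes that this rule names are not reported here. Alternatives were other scaling factors, other filters, DESeq2 1.42.0, a fit to all libraries, a threshold on the fold change, the replicate number as a block, and leaving out each library. Fold changes that the study's authors computed were not used.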

Additional observations from a re-analysis of the deposited data

Results flagged for a closer look

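The change with sh-LDB1 differed between the cell lines for 3 of 9 members tested, beside 24.4% of all genes. The test was the interaction term of edgeR's quasi-likelihood fit to all 8 libraries with Benjamini-Hochberg adjustment. For NEAT1 the log2 fold change was higher in J.gamma1 by 1.28 (adjusted p = 1.57e-05), and both sh-LDB1 libraries were above both sh-NC libraries in each line. For PVT1 the difference was 1.74 (adjusted p = 0.0117), with all sh-LDB1 libraries below sh-NC in 6T-CEM and above it in J.gamma1. For SNHG5 it was -0.26 (adjusted p = 0.0410), a small change that several alternatives ended. With 2 libraries in a group, no single library could be tested as standing apart.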

How the results depend on the processing

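Under other settings than leaving out a library, 223 values kept their direction and side of the threshold, 8 newly passed and 7 no longer passed, and of the fits without 1 library 191 kept both, 10 newly passed, 17 no longer passed and 2 reversed. The number of members called in 6T-CEM was 2, but 5 with a fit to all 8 libraries, 0 with a log2 difference beyond 1 as well, and between 2 and 5 without 1 library. In J.gamma1 it was 9, but 5 beyond a log2 difference of 1, and between 7 and 8 without 1 library. The number whose change differed between the lines was 3, and between 1 (without 6T-CEM sh-NC replicate 2) and 5 (without 6T-CEM sh-LDB1 replicate 1, when MALAT1, MIR17HG and DLEU2 passed and SNHG5 did not). For sh-NC levels it was 8, but 4 beyond a log2 difference of 1, and between 6 and 9 without 1 library. Reversed were the MIAT difference between the lines without 6T-CEM sh-NC replicate 2 (-0.45, in a range up to 1.18 without 1 library) and the MALAT1 difference in sh-NC level without 6T-CEM sh-NC replicate 1 (-0.0069, in a range up to 0.21), neither of which passed in any fit. The cause of these shifts was not tested. Each fit without 1 library left 1 library in a group, so the spread within that group did not enter it. A call gained in such a fit does not show a firmer change. Over all genes, deviations of same-numbered libraries had r = -0.013 within 6T-CEM and -0.0143 within J.gamma1. Such an r does not show whether some genes shared an effect of the replicate number. The mitochondrial share was higher in replicate 2 than in replicate 1 of every group. With the replicate number as a block, the calls numbered 2 for 6T-CEM and 9 for J.gamma1, 4 differed between the lines, with DLEU2 added (1.06, adjusted p = 0.029), and 8 differed in sh-NC level, with GAS5 lost (adjusted p = 0.0654) and DLEU2 gained (adjusted p = 0.0162). Other scalings moved the median of all genes by under 0.1. Counts limited MIAT in 6T-CEM, MIR17HG in J.gamma1 and PVT1 in both lines.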
